A study of Mus musculus with 14 samples.

Results

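Transcripts of 6 myelin genes were followed in microglia sorted from the mouse cortex after a stroke and after a sham operation. They were taken by symbol from a list of 7, Mbp, Mobp, Mag, Mog, Cnp, Cldn11 and Mal, of which 6 had a row among the 14084 genes of the count table. Cldn11 was not analysed here. All 6 passed the filter on low counts.

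Microglia are the resident macrophages of the brain. All groups were C57BL/6 mice with an age label of 8 to 10 weeks, and the cells were isolated from cerebral cortex by fluorescence-activated cell sorting. In stroke mice the distal middle cerebral artery was tied off for good and both common carotid arteries were then closed for 7 min, and sham mice had a lesion of the skull surface alone. There were 2 libraries of each of 7 groups: sham, and days 1, 3, 7, 21, 60 and 90 of stroke. The labels state neither the sorting gate, nor when sham mice were sampled, nor whether the 2 libraries of a group are from different animals, so p-values measure only the spread between these libraries, which may be technical.

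Myelin is the lipid-rich sheath that oligodendrocytes wrap around axons in the central nervous system. Its transcripts are therefore used as markers of oligodendrocytes, while microglia are known for taking up myelin debris. Mbp encodes myelin basic protein, which compacts the inner faces of the sheath, and Mobp encodes another basic protein of compact myelin. Mag encodes a sialic acid-binding adhesion protein that faces the axon, and Mog encodes an immunoglobulin-like protein of the outermost layer. Cnp encodes an enzyme of the non-compact, cytoplasm-filled channels of myelin, Mal encodes a membrane protein of lipid-rich domains, and Cldn11 encodes the tight junction protein of the sheath.

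Replicate 1 libraries held 15254983 to 28758420 counts and replicate 2 libraries 100625099 to 191692779. The sham libraries stood apart in some of their markers and overlapped stroke libraries in others. The microglial gene Tmem119 had 41.6 to 350 counts-per-million units (CPM) in the 12 stroke libraries, with a median of 208, against 2.48 and 16.9 CPM in the sham libraries. Sall1, a microglial transcription factor, had 1.08 to 46.7 CPM in stroke libraries against 0.214 and 0.424 CPM in sham libraries. P2ry12, another microglial gene, overlapped, with 22.9 to 358 CPM in stroke libraries against 17.6 and 47.5 CPM in sham libraries. The summed level of 12 microglial markers was 2650 to 26626 CPM in stroke libraries and 1596 and 2691 CPM in sham libraries, so the lowest stroke library lay between the sham libraries. The summed level of 14 neutrophil markers was 387 to 8045 CPM in stroke libraries and 22521 and 33317 CPM in sham libraries. In such bulk libraries, fewer cells of a type and less RNA per cell cannot be told apart. Gene levels below are CPM with TMM scaling, whereas list sums are CPM without it.

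The 6 genes did not share 1 course over time. Mbp was lower after stroke than in sham, Mal was counted only after stroke, Mag was above both sham libraries in 11 of 12 stroke libraries, Cnp stayed within a narrow range, and Mobp and Mog each owed most of their counts to 1 or 2 libraries. Over all stroke times against sham, edgeR's quasi-likelihood test called 2 of the 6 genes at an adjusted p under 0.05, Mal as higher and Mbp as lower. Of all 13861 genes tested in that comparison, 19.8% were called.

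**Figure D1:**
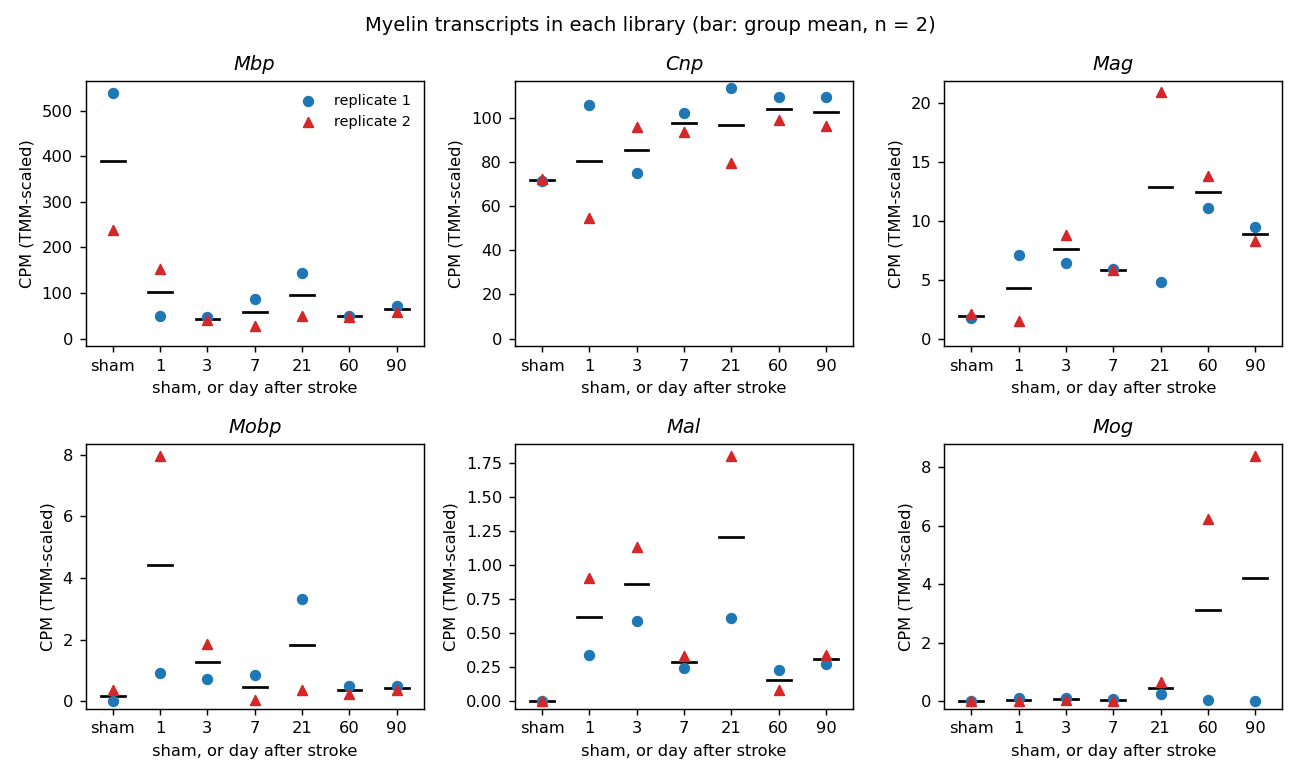
Level of each of the 6 measured myelin genes in CPM on a linear axis, by group, with sham at the left and then the day after stroke. Circles are replicate 1, triangles are replicate 2 and bars are group means of 2 libraries. Both Mbp values of sham, 539 and 239 CPM, lie above all 12 stroke values, and both large Mog values, 6.24 and 8.38 CPM, are replicate 2 libraries of days 60 and 90.

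Mbp and Cnp had the highest levels of the 6 genes. Per kilobase of exon sequence, the mean level over the 14 libraries was 25.1 CPM per kb for Cnp and 13.6 CPM per kb for Mbp. The same level was 1.89 CPM per kb for Mag, 0.671 for Mog, 0.187 for Mobp and 0.177 for Mal.

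Mbp had 539 and 239 CPM in sham, 50.7 and 153 CPM on day 1, 48.0 and 40.3 CPM on day 3, and 87.3 and 28.5 CPM on day 7. It had 144 and 49.1 CPM on day 21, 50.8 and 46.9 CPM on day 60, and 70.7 and 58.5 CPM on day 90. All 12 stroke libraries lay below both sham libraries, and the highest stroke libraries were replicate 2 of day 1 and replicate 1 of day 21. In the order of group means, sham did not overlap the next group, day 1, while each of the other neighbours overlapped the next: day 1, day 21, day 90, day 7, day 60 and day 3.

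Mbp fell after stroke, with a mean of 69.0 ± 40.1 CPM in stroke libraries and 389 ± 212 CPM in sham libraries (SD, n = 12 and 2). Its log2 fold change over all stroke times was -2.57 ± 0.44 (SE; edgeR adjusted p = 0.00241), and the joint test of the 7 groups also called it (edgeR adjusted p = 0.0489), the only 1 of the 6 genes called there, where 7.21% of all genes were called. By time, Mbp was called on day 3 (log2 fold change -3.14 ± 0.75, edgeR adjusted p = 0.0253), on day 7 (-2.75 ± 0.73, edgeR adjusted p = 0.0316) and on day 60 (-2.99 ± 0.74, edgeR adjusted p = 0.0328). The log2 fold changes on days 1, 21 and 90 were -1.93 ± 0.71, -2.01 ± 0.71 and -2.59 ± 0.73 and did not pass (edgeR adjusted p = 0.141, 0.111 and 0.0503). Mbp was lower than the sham library of the same replicate number at 6 of 6 times in replicate 1 and at 6 of 6 times in replicate 2.

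Every single-time call of Mbp was lost when 1 sham library was left out. The lone sham library is then assumed to vary like the other groups, and over the 6 times such fits called 0.498% to 3.02% of all genes, against 4.55% to 12.6% with both sham libraries. Without sham replicate 1 the edgeR adjusted p was 0.158 on day 3, 0.185 on day 7 and 0.198 on day 60, and without sham replicate 2 it was 0.0531, 0.0549 and 0.0567 at these times. Over all alternatives run, the adjusted p ranged from 0.000178 to 0.158 on day 3, from 0.000945 to 0.191 on day 7 and from 0.000360 to 0.311 on day 60. The calls on days 3, 7 and 60 were also lost without either library of the same day, and those on days 7 and 60 without either library of day 90, with adjusted p between 0.0518 and 0.217 over the fits that lost them. The call over all stroke times was lost without sham replicate 1 (edgeR adjusted p = 0.104) and was kept without sham replicate 2 (edgeR adjusted p = 0.0103), with a range of 2.61e-05 to 0.104 over all alternatives. With the replicate number as a block, edgeR called Mbp on day 90 (adjusted p = 0.0366, range 0.00266 to 0.351 over the alternatives). The block fit called 14.5% of all genes on day 90, against 7.86% in the main model. With 1 library left out, the log2 fold change of Mbp was -3.06 to -1.81 on day 90 and -2.96 to -1.20 on day 21. Some of these fits crossed the threshold. The joint call was lost in 10 of 14 fits that left out 1 library, namely either library of sham or of days 3, 7, 60 or 90, with adjusted p between 0.0534 and 0.390.

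The level of Mbp moved with markers of some blood cells. Across the 14 libraries its log2 level had r = 0.80 with the summed neutrophil markers and r = 0.74 with 10 summed monocyte markers. Among the 12 stroke libraries alone both correlations were 0.58. Over the 14 libraries it had r = -0.08 with the summed B cell markers and r = -0.07 with the summed T and NK cell markers. The sum of 3 measured red cell markers was 0 to 4.43 CPM in stroke libraries against 200 and 207 CPM in sham libraries. These libraries share depth and cell makeup, and the part of those cells in the Mbp result was not tested. The genes whose log2 CPM was most like that of Mbp were Pxn (r = 0.98), Zdhhc18 (r = 0.97), Ampd3 (r = 0.97), Whsc1l1 (r = 0.96) and Nfam1 (r = 0.96), chosen out of the 10641 genes whose mean log2 CPM was 0 or more. Besides the classic myelin proteins, the Mbp gene is known to give Golli transcripts, which immune cells also make, and gene counts do not separate these.

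**Figure D2:**
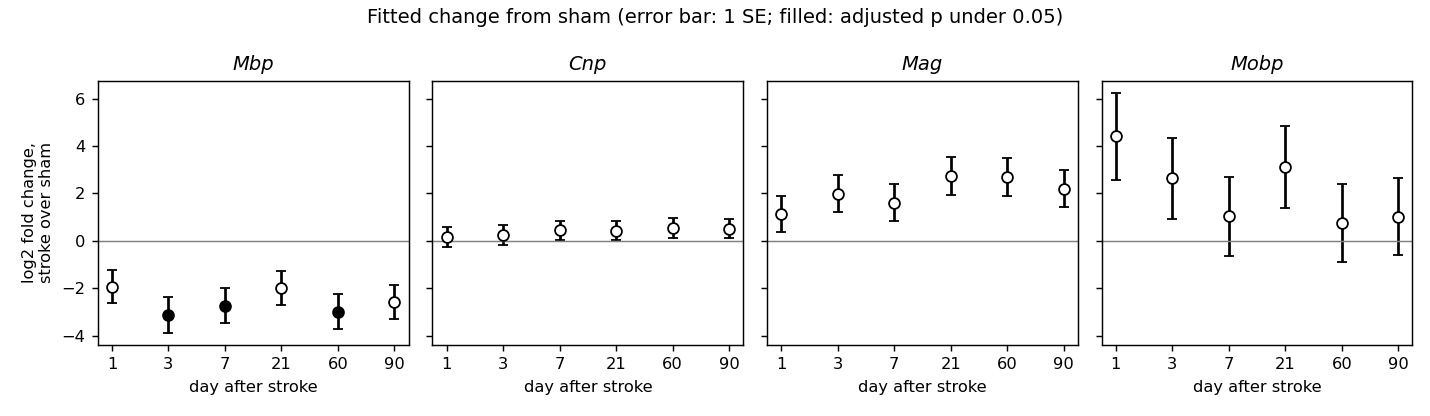
Fitted log2 fold change of stroke over sham for Mbp, Cnp, Mag and Mobp at each day after stroke, with error bars of 1 SE and filled points where the edgeR adjusted p was under 0.05. Mbp lies below 0 at all 6 times and is filled on days 3, 7 and 60, while no point of the other 3 genes is filled.

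Cnp had 71.6 and 72.5 CPM in sham, 106 and 54.7 CPM on day 1, 75.0 and 95.8 CPM on day 3, and 102 and 93.7 CPM on day 7. It had 114 and 79.5 CPM on day 21, 109 and 99.0 CPM on day 60, and 109 and 96.1 CPM on day 90. Of the stroke libraries 11 of 12 lay above both sham libraries and replicate 2 of day 1 lay below both. Cnp varied least of the 6 genes, with a coefficient of variation of 19.4% over the 14 libraries, where Mbp had 118% and Mog 232%.

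No comparison called Cnp in edgeR, nor did any alternative run. Its log2 fold change over all stroke times was 0.39 ± 0.32 (edgeR adjusted p = 0.435, range 0.187 to 0.673 over the alternatives), and over the 6 times against sham it lay between 0.16 and 0.53. A p that misses the threshold does not show that the level was equal. In the GENCODE annotation of GRCm38, Cnp shares 154 exon bases with Dnajc7, which lies on the opposite strand. The strand setting of the counting was not given in the sources used here, so reads of the 2 genes over these bases cannot be told apart. The levels of Cnp and Dnajc7 had r = -0.13 across the 14 libraries. The 5 genes most like Cnp were Ccdc166 (r = 0.93), Ubxn2b (r = 0.90), Zfp3 (r = 0.89), R3hcc1 (r = 0.88) and Atad5 (r = 0.87).

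Mag had 1.76 and 2.08 CPM in sham, 7.09 and 1.47 CPM on day 1, 6.45 and 8.82 CPM on day 3, and 5.91 and 5.83 CPM on day 7. It had 4.80 and 20.9 CPM on day 21, 11.1 and 13.8 CPM on day 60, and 9.47 and 8.32 CPM on day 90. The stroke libraries lay above both sham libraries in 11 of 12 cases, with day 1 replicate 2 below both and day 21 replicate 2 the highest. Day 60 did not overlap day 90, and day 3 did not overlap day 7, while the other neighbours in the order of means (day 21, day 60, day 90, day 3, day 7, day 1, sham) overlapped.

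Mag averaged 8.67 ± 4.98 CPM in stroke libraries and 1.92 ± 0.23 CPM in sham libraries (SD, n = 12 and 2), and the main edgeR model, with TMM scaling and no block, did not call it in any comparison. Its log2 fold change over all stroke times was 2.06 ± 0.68 (edgeR adjusted p = 0.0524), and on days 21 and 60 it was 2.74 ± 0.80 and 2.70 ± 0.80 (edgeR adjusted p = 0.0633 and 0.0609). Against the sham library of the same replicate number, Mag was higher at 6 of 6 times in replicate 1 and at 5 of 6 times in replicate 2. DESeq2 called Mag as higher over all stroke times and on days 21, 60 and 90. With upper-quartile scaling edgeR called Mag on day 21 (adjusted p = 0.0492), where that fit called 7.06% of all genes. For all stroke times edgeR also called Mag with the replicate number as a block (adjusted p = 0.0480) or with upper-quartile scaling (0.0437). These 2 fits of all 14 libraries called 27.2% and 19.3% of all genes over all stroke times, against 19.8% in the main model. Over the alternatives run, that adjusted p ranged from 0.00428 to 0.263. With 1 library left out, the log2 fold change of Mag was 1.81 to 2.20 over all stroke times and 1.32 to 3.48 on day 21. It was 2.53 to 2.85 on day 60 and 2.15 to 2.38 on day 90. Fits without 1 library of day 1 or day 21 also called Mag at some times. On day 60 such fits called more of all genes than the main model.

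Mag shares its locus with Cd22, which encodes another sialic acid-binding immunoglobulin-like lectin, known from B cells and also from microglia. In the gene order of GRCm38, Cd22 is the nearest measured gene to Mag on chromosome 7, and both lie on the minus strand. Their promoter windows, 250 bases before to 50 after the annotated start, are shown because the pair moved together; capitals mark TGGCAC, the core recognised by the oligodendrocyte factor MYRF, and the SOX core ACAAAG or ACAATG, on either strand. The sequences and coordinates are from RefSeq for GRCm38.p6, while the submitters' processing notes name mm9.
Mag, chr7:30914873-30915172, minus strand: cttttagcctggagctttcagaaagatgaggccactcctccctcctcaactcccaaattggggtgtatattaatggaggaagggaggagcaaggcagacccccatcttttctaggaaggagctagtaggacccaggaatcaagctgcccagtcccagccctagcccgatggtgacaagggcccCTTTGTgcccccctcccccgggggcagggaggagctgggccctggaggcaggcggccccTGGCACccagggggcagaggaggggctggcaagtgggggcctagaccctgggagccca
Cd22, chr7:30878979-30879278, minus strand: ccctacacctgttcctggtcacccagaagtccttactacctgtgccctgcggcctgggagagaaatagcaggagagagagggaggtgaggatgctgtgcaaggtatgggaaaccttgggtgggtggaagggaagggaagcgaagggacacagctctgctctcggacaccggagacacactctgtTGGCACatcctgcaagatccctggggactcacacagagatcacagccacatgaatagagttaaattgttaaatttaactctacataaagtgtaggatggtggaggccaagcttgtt
The TGGCAC core occurs once in each window shown and the SOX core once in that of Mag; RefSeq gives Mag 3 starts, and the window of 1 of them holds neither core. Of 32851 promoter windows of the same length, 13.3% hold the first and 28.6% the second. The motifs were chosen with the sequences in view, and a match is a description of these letters.

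Cd22 had 15.0 and 14.2 CPM in sham, 33.4 and 2.43 CPM on day 1, 25 and 40.1 CPM on day 3, and 93.6 and 99.2 CPM on day 7. It had 50.9 and 245 CPM on day 21, 98.4 and 90.4 CPM on day 60, and 130 and 161 CPM on day 90. Its lowest and its highest library were day 1 replicate 2 and day 21 replicate 2, which were also the lowest and the highest library of Mag. Across the 14 libraries the log2 levels of Mag and Cd22 had r = 0.86, with 0.76 over the 7 libraries of replicate 1 and 0.90 over the 7 of replicate 2; Cd22 was chosen for this comparison after its values were seen. By the rule applied to all genes, those most like Mag were 1110051M20Rik (r = 0.96), Tfpi (r = 0.96), Laptm4b (r = 0.96), Lancl1 (r = 0.94) and Eid2 (r = 0.94). Mag also had r = 0.70 with the summed microglial markers and r = -0.87 with the summed monocyte markers, and the part of cell makeup in its course was not tested. Day 21 replicate 2, its highest library, also had the highest sum of microglial markers, 26626 CPM, and 1733 genes at 0 counts, the most of the 14 libraries.

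**Figure D3:**
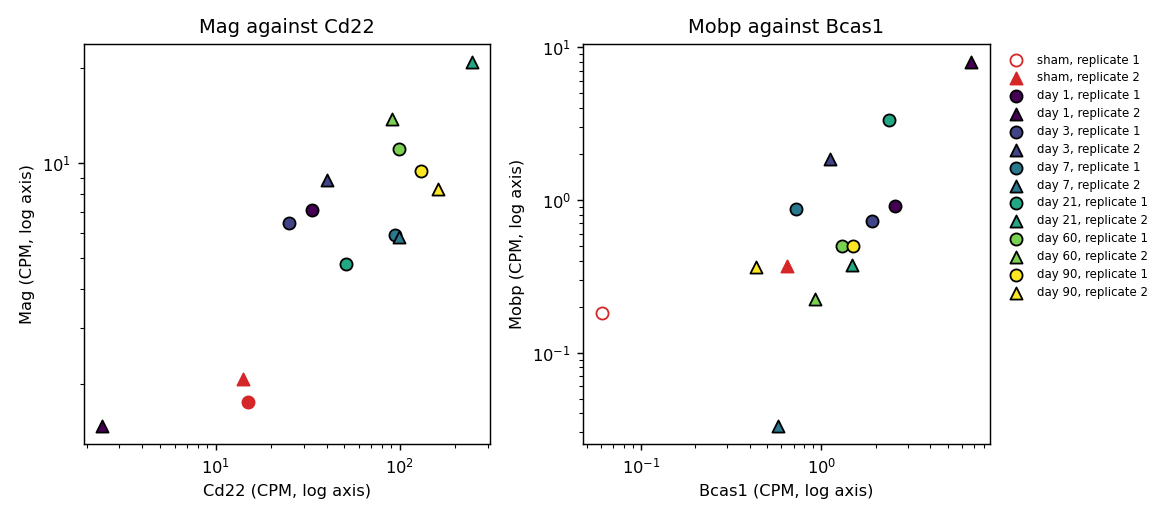
Left, Mag against Cd22, its nearest measured neighbour, and right, Mobp against Bcas1, the gene most like it, each in CPM on log axes with 1 point per library (circles replicate 1, triangles replicate 2, sham in red). The open point is a library with 0 counts of Mobp, drawn at the level of 3 counts in that library. Day 1 replicate 2 is lowest for Mag and Cd22 and highest for Mobp and Bcas1.

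Mal had no count in either sham library, which allows up to 0.0298 CPM at 3 counts over the group. It had 0.340 and 0.906 CPM on day 1, 0.592 and 1.13 CPM on day 3, and 0.242 and 0.331 CPM on day 7. On day 21 it had 0.611 and 1.80 CPM, on day 60 0.229 and 0.0806 CPM, and on day 90 0.275 and 0.341 CPM. All 12 stroke libraries had counts of Mal, between 5 and 222, so the stroke libraries did not overlap sham, and day 21 replicate 2 was the highest. These are low levels, and the 6 stroke libraries of replicate 1 held 5 to 14 counts each.

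Mal rose after stroke at 5 of 6 times. Its mean was at least 20.9-fold higher than sham on day 1, at least 28.9-fold on day 3, at least 9.62-fold on day 7, at least 40.5-fold on day 21 and at least 10.3-fold on day 90, bounds that cover the counting error of sham only. The edgeR adjusted p at these times was 0.0384, 0.0233, 0.0370, 0.0238 and 0.0454. On day 60, where the unweighted mean of 0.155 CPM was 5.20-fold the sham floor, the test did not pass (edgeR adjusted p = 0.0776). Pooled by depth, day 60 had 0.107 CPM on 16 counts, so 5.20-fold is not a lower bound there. Taking all stroke times, the bound was at least 19.2-fold with an edgeR adjusted p of 0.0144. limma-voom did not call Mal on days 1, 7 and 90 (adjusted p = 0.0504, 0.0683 and 0.0675) and called it on days 3 and 21. In the joint test Mal did not pass (edgeR adjusted p = 0.105).

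The calls of Mal were likewise lost when 1 sham library was left out, in the same fits with few calls over all genes. Without sham replicate 1 the edgeR adjusted p was 0.154, 0.102, 0.117, 0.0921 and 0.141 on days 1, 3, 7, 21 and 90, and without sham replicate 2 it was 0.205, 0.145, 0.206, 0.184 and 0.241. The call on day 3 was also lost without day 3 replicate 2, and that on day 21 without day 21 replicate 2. The call on day 7 was also lost without either library of days 7, 60 or 90, and that on day 90 without either library of days 3, 7, 60 or 90. The call on day 1 was kept only in the 2 fits that left out a library of day 21. Over all stroke times the adjusted p was 0.0808 without sham replicate 1 and 0.136 without sham replicate 2. Over all alternatives it ranged from 0.00121 to 0.136 for all stroke times, from 0.00360 to 0.205 on day 1, from 0.00111 to 0.145 on day 3, from 0.0128 to 0.206 on day 7, from 0.000433 to 0.220 on day 21 and from 0.0130 to 0.241 on day 90.

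The genes most like Mal were Gpr84 (r = 0.95), Phgdh (r = 0.95), Spint1 (r = 0.94), P4ha1 (r = 0.93) and Garnl3 (r = 0.93). Gpr84, a receptor for medium-chain fatty acids of myeloid cells, had 25.4 to 267 CPM in stroke libraries against 3.54 and 3.82 CPM in sham libraries. Mal had r = 0.69 with the summed microglial markers and r = 0.76 with the summed astrocyte markers over the 14 libraries. The astrocyte markers summed to 27.5 to 231 CPM in stroke libraries and to 17.0 and 35.8 CPM in sham libraries. Aqp4, the astrocyte water channel, was at most 1.19 CPM in any library. Gfap, another astrocyte marker, had 1.30 to 10.9 CPM in stroke libraries against 0 and 8.29 CPM in sham libraries. Its highest library was day 21 replicate 2, also the highest of Mal. Whether either cell type bore on Mal was not tested.

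Mobp had 0 and 0.368 CPM in sham, 0.908 and 7.96 CPM on day 1, 0.724 and 1.85 CPM on day 3, and 0.872 and 0.0331 CPM on day 7. It had 3.31 and 0.373 CPM on day 21, 0.497 and 0.226 CPM on day 60, and 0.496 and 0.361 CPM on day 90. Day 1 replicate 2 was highest and held 1151 of the 1802 counts of Mobp, and stroke and sham overlapped, with 9 of 12 stroke libraries above both sham libraries. In the order of means (day 1, day 21, day 3, day 7, day 90, day 60, sham) each group overlapped the next.

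Mobp was not called in any comparison by edgeR. Its log2 fold change on day 1 was 4.41 ± 1.83 (edgeR adjusted p = 0.186, range 0.0289 to 0.539 over the alternatives, of which DESeq2 called it), and over all stroke times it was 2.16 ± 1.47 (edgeR adjusted p = 0.330). The within-number differences disagreed between replicates, with Mobp higher than sham at 6 of 6 times in replicate 1 and at 3 of 6 times in replicate 2. Mobp and Mbp had r = -0.11 over the 14 libraries and 0.80 over the 12 stroke libraries, where day 1 replicate 2 and day 21 replicate 1 were the 2 highest libraries of both genes.

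The gene most like Mobp was Bcas1 (r = 0.85), itself a gene of myelinating oligodendrocytes and a member of the list of further myelin genes. The next were Kif5a (r = 0.82), Flrt3 (r = 0.80), Zbtb18 (r = 0.79) and Htr7 (r = 0.79); Kif5a encodes a neuronal kinesin. Bcas1 had 6.75 CPM in day 1 replicate 2, 0.436 to 2.55 CPM in the other stroke libraries, and 0.0606 and 0.642 CPM in sham. The same library had 11896 CPM of summed monocyte markers, the highest of the 12 stroke libraries, whose median was 2061 CPM. It also had the highest sum of oligodendrocyte transcription factors of the 14 libraries, 25.7 CPM, and sums of 127 CPM for precursor markers, 154 CPM for astrocyte markers and 29.8 CPM for neuronal markers, where the stroke medians were 23.0, 58.8 and 8.12 CPM. Single genes made most of the factor and precursor sums, Tcf7l2 with 24.3 CPM and Vcan, also in the monocyte list, with 121 CPM. In that library Olig2 and Pdgfra had 0 counts, Sox10 had 0.0277 CPM and Olig1 0.242 CPM. Of the further myelin genes, Klk6 had 7.87 CPM and Plekhb1 6.75 CPM there, each the highest of the 14 libraries. The sum of the 27 measured genes of that list was 1076 CPM there, the lowest of the 12 stroke libraries. The part of the cells that these markers stand for in the Mobp level was not tested. The RefSeq promoter window of Mobp is shown for its SOX cores, again in capitals on either strand.
Mobp, chr9:120149492-120149791, plus strand: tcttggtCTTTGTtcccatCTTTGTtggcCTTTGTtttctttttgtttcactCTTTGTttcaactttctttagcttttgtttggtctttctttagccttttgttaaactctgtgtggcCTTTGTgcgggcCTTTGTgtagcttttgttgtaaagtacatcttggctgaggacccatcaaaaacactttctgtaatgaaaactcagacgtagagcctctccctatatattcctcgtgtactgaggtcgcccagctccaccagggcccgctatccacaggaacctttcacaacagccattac
It holds 6 matches to the SOX core and 0 to TGGCAC, and 1 of the 32851 windows, that of Mobp, holds as many SOX cores. The window was shown because of these matches, so its rank is a description of these letters and no test. The windows of Mog and Mal hold 0 of either core, and that of Cnp holds 1 of each.

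Mog had no count in sham, and 0.113 and 0.0138 CPM on day 1, 0.132 and 0.0348 CPM on day 3, and 0.0969 and 0 CPM on day 7. It had 0.262 and 0.665 CPM on day 21, 0.0382 and 6.24 CPM on day 60, and 0.0275 and 8.38 CPM on day 90. Of its 2552 counts, 774 lay in day 60 replicate 2 and 1674 in day 90 replicate 2, while replicate 1 of each of these days had 1 count. Both libraries of 1 day thus lay far apart, and outside these 2 libraries and day 21 replicate 2, with 82 counts, none had more than 6.

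Mog was not called in any comparison by edgeR. Its mean was at least 105-fold higher than the sham floor on day 60 and at least 141-fold higher on day 90, each resting on 1 library, with edgeR adjusted p of 0.107 and 0.0994. DESeq2 called Mog on days 21, 60 and 90 (adjusted p = 0.0468, 0.00252 and 0.00133; over the alternatives these ranged up to 0.530, 0.644 and 0.651), and over all stroke times (adjusted p = 0.0219). Between late and early times its log2 fold change was 5.34 ± 1.59 (edgeR adjusted p = 0.112, range 0.00122 to 0.935 over the alternatives), and DESeq2 called it. On day 21, where both libraries had counts, the mean of 0.464 CPM was at least 15.6-fold higher than the floor of sham (edgeR adjusted p = 0.219).

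The 2 libraries with Mog were also set apart by other genes. The genes most like Mog were Camk2a (r = 0.88), Pdgfrb (r = 0.85), Tcof1 (r = 0.80), Hspa1l (r = 0.79) and 8430408G22Rik (r = 0.76). Camk2a, a kinase of excitatory neurons, had 1760 CPM in day 60 replicate 2 and 942 CPM in day 90 replicate 2, and at most 5.68 CPM in the other 12 libraries. Pdgfrb, a receptor of pericytes, had 2004 and 1079 CPM in those libraries and at most 24.7 CPM in the others. Tcof1, a nucleolar protein, had 1905 and 1049 CPM there and at most 119 CPM elsewhere. Tcof1, Camk2a and Pdgfrb lie close to each other in the gene order of chromosome 18, a chromosome on which Mog does not lie.

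A pair of measured genes near Mog on chromosome 17 had their highest values in the same libraries, and they were chosen after their values were seen. Of the 4 other measured genes within 8 genes of Mog, Rnf39 had r = -0.15 with Mog over the 14 libraries, Ppp1r11 0.04, Znrd1 0.08 and Znrd1as 0.49. Of the chosen pair, Ubd had r = 0.93 and Gabbr1 r = 0.50, near that of Znrd1as. Over the 7 libraries of replicate 1, r was 0.48 for Ubd and -0.45 for Gabbr1. Ubd, which encodes a ubiquitin-like modifier, had 2.27 CPM in day 60 replicate 2 and 2.79 CPM in day 90 replicate 2, and at most 0.609 CPM in the others. Gabbr1, a subunit of the GABA-B receptor, had 16.7 and 5.85 CPM in these libraries and at most 3.09 CPM in the others. Of the summed counts of 11 measured neuronal markers, Camk2a made 218231 of 219577 in day 60 replicate 2 and 188073 of 190757 in day 90 replicate 2. Among the others, Snap25, a synaptic gene, had at most 1.91 CPM and Rbfox3, a nuclear marker of neurons, at most 1.56 CPM in any library. What set these libraries apart was not tested.

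**Figure D4:**
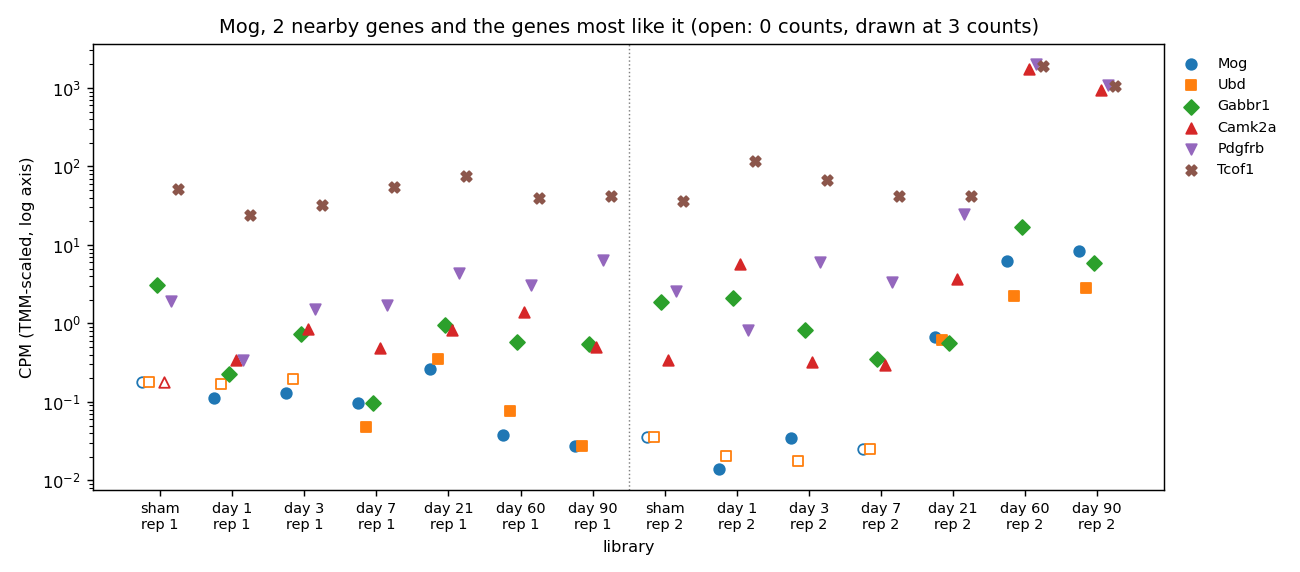
Levels of Mog, 2 of its 6 nearby measured genes, Ubd and Gabbr1, and the 3 genes most like it, in CPM on a log axis, with 1 column per library, replicate 1 to the left of the dotted line and replicate 2 to the right. Open symbols are 0 counts, drawn at the level of 3 counts in that library. In replicate 2 of days 60 and 90 Camk2a, Pdgfrb and Tcof1 lie between 942 and 2004 CPM.

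By time against sham, edgeR called 1 of the 6 genes on day 1 (4.55% of all genes), 2 on day 3 (8.28% of all genes), 2 on day 7 (12.6%), 1 on day 21 (6.44%), 1 on day 60 (7.85%) and 1 on day 90 (7.86%). The calls were Mal on days 1, 3, 7, 21 and 90 and Mbp on days 3, 7 and 60. No single-time call was kept without either sham library, nor without replicate 2 of both day 60 and day 90, an alternative chosen after seeing the data. Such fits leave 1 library in a group, and the share of all genes called moved with the library left out. The median log2 fold change of the 6 genes against sham lay between 1.32 and 2.93 over the 6 times, or between 0.86 and 2.93 with genes without sham counts at their bound, against 0.04 to 0.15 for all genes. Their summed level was lower in most stroke libraries, with 662 and 263 CPM in sham and 112 to 362 CPM, median 166 CPM, after stroke. Mbp made 84.7% of the sum in sham.

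Pairs of members had correlations of log2 CPM between -0.79, for Mbp and Mag, and 0.63, for Mag and Cnp, over the 14 libraries, which share depth and cell makeup. The genes most like the mean of the 6 standardised profiles were Fscn1 (r = 0.89), Il2ra (r = 0.88), Il12b (r = 0.86), Lysmd2 (r = 0.85) and Foxp4 (r = 0.84). The least like it were Smad2 (r = -0.87), Snx4 (r = -0.86) and Taf5 (r = -0.84).

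Between neighbouring times edgeR called none of the 6 genes. Of all genes, 0% were called for day 3 against day 1, 0.00721% for day 7 against day 3, 0% for day 21 against day 7, 0.0216% for day 60 against day 21 and 0% for day 90 against day 60. At an unadjusted p under 0.05 edgeR found 1 gene in these 5 comparisons, Mal on day 60 against day 21 (log2 fold change -3.02 ± 1.27), and DESeq2 and limma-voom called 0. Of all genes, DESeq2 called 0.0361% to 2.69% in these comparisons and limma-voom 0% to 0.0721%. For the late times, days 21, 60 and 90, against the early times, days 1, 3 and 7, edgeR called 0 of the 6, where 2.83% of all genes were called, with 2 at an unadjusted p under 0.05, Mag and Mog. DESeq2 called 1 there, Mog, and limma-voom 0, where they called 8.28% and 4.23% of all genes.

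Other genes of myelin were also not called as 1 group. Of 35 further myelin genes 27 were measured and 25 tested, and against sham edgeR called 1 higher and 1 lower on days 1, 3 and 21, 1 higher and 4 lower on day 7, 2 higher on day 60 and 1 higher on day 90. Of all genes, 4.55%, 8.28% and 6.44% were called on days 1, 3 and 21. The share was 12.6% on day 7, 7.85% on day 60 and 7.86% on day 90. Pmp22, a protein of peripheral myelin that many cell types make, was higher at all 6 times, with 310 ± 127 CPM on day 90 and 1.22 ± 0.50 CPM in sham (SD, n = 2 each; log2 fold change 8.01 ± 0.89, edgeR adjusted p = 0.000827). Ndrg1, a stress-responsive gene that Schwann cells need to keep their myelin, was lower on days 1, 3, 7 and 21. It had 20.2 ± 0.15 CPM on day 7 and 178 ± 16.6 CPM in sham (SD, n = 2 each; log2 fold change -3.13 ± 0.45, edgeR adjusted p = 0.00281). The other calls were Jam3, a junctional adhesion protein, Car2, a carbonic anhydrase, and Padi2, an enzyme that citrullinates Mbp, lower on day 7, and Qdpr, a pteridine reductase, higher on day 60. Over all stroke times Tspan2, a tetraspanin, was lower too (log2 fold change -4.90 ± 0.93, edgeR adjusted p = 0.00550).

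Of the defining genes of oligodendrocytes, 3 are given here and were near 0. Sox10, the transcription factor of the lineage, was at most 0.393 CPM in any library, Olig1, another such factor, at most 1.05 CPM, and Ermn, a protein of mature oligodendrocytes, at most 0.262 CPM with 0 counts in 8 of 14 libraries. Of 11 oligodendrocyte transcription factors 9 were measured and 7 tested, and edgeR called 0 at every time against sham, with 0 or 1 at an unadjusted p under 0.05. At these times 4.55% to 12.6% of all genes were called, and 0 of 7 is near that share. Their summed level was 2.57 to 25.7 CPM in stroke libraries and 12 and 17.5 CPM in sham libraries. Of 12 genes of oligodendrocyte precursors 8 were measured and 7 tested, and edgeR called 1, Cspg4, a proteoglycan that pericytes also make, as higher on days 3, 7 and 21. On these days 8.28%, 12.6% and 6.44% of all genes were called. Cspg4 had 17.2 ± 6.96 CPM on day 21 against 0.327 ± 0.462 CPM in sham (SD, n = 2 each; log2 fold change 5.52 ± 1.25, edgeR adjusted p = 0.0264).

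**Figure D5:**
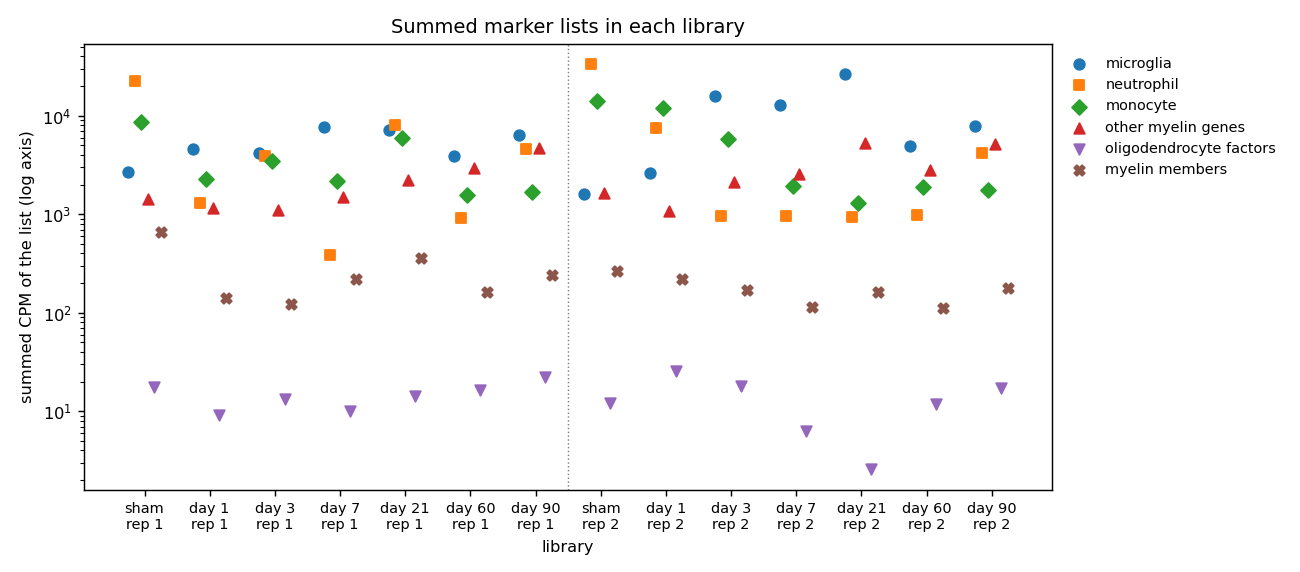
Summed level of 6 gene lists in each library, in CPM without TMM scaling on a log axis, with replicate 1 to the left of the dotted line and replicate 2 to the right. The neutrophil markers are highest in both sham libraries, 22521 and 33317 CPM, the microglial markers lie between 2650 and 26626 CPM after stroke, and the oligodendrocyte factors stay at or below 25.7 CPM in all 14 libraries.

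Genes for the uptake of myelin and the handling of its lipids were called mostly as higher. All 21 genes of this list were tested, with a median log2 fold change of 1.43 to 2.99 over the 6 times against 0.04 to 0.15 for all genes, and edgeR called 8 higher on day 1, 10 on day 3, 13 on day 7, 7 on day 21, 14 on day 60 and 11 on day 90, against 1 lower on day 21, Cd36, a scavenger receptor. Over the 6 times 4.55% to 12.6% of all genes were called. The genes of this list were chosen with earlier results of these data known. Their summed level was 10517 to 127092 CPM in stroke libraries and 3932 and 4474 CPM in sham libraries. Over the 14 libraries that sum had r = -0.85 with Mbp, 0.90 with Mag and 0.57 with Mal, and among the 12 stroke libraries -0.62, 0.87 and -0.39. Sham and stroke libraries also differ in microglial and neutrophil markers, and the part of that difference was not tested.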

How the data were processed

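RNA of sorted cortical microglia was sequenced in 14 libraries, and the authors deposited whole-number read counts per gene, in 1 table and in 1 file per library. All 197176 values were equal between both. Per the submitters' processing notes, reads were processed with HTSeq 0.6.1 and Bowtie2 2.3.4.2 on mm9; the annotation, strand setting and handling of reads with several matches were not given in the sources used here. Groups and replicate numbers follow the sample titles.

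The counts were fitted in R 4.3.3 with edgeR 4.0.16 (TMM scaling, filter by group, robust quasi-likelihood test), in 1 model of all 14 libraries with 7 residual degrees of freedom. Of 14084 genes 13861 were tested and 223 removed, and the common biological coefficient of variation was 0.639. Calls are at an adjusted p (Benjamini-Hochberg, all genes tested) below 0.05. The fit was tested on simulated data with less spread than these libraries and with large changes in well-counted genes. That test does not cover members with few counts. The standard error is the log2 fold change divided by the square root of F. Where sham had 0 counts, folds are of the unweighted group mean against 3 counts in both sham libraries together, a floor for the counting error of sham only. Correlations use log2 CPM with a prior count of 2; list sums are CPM of unscaled totals. Exon lengths are union exons of GENCODE M21 on GRCm38. At most 0.614% of the 50-base words of a member's transcripts occur in another gene. Promoters are RefSeq windows.

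Alternatives were DESeq2 1.42.0, limma 3.58.1 (voom), upper-quartile scaling, DESeq2 size factors, no filter, a replicate block, the compared groups alone, and each library left out. The named genes are all members, up to 4 called genes of the other myelin list and up to 3 of the other oligodendrocyte lists by size of change, the 5 genes most like each member, and defining markers of other cell types; others are marked in the text. Members and lists were chosen with earlier results of these data known. A further myelin gene is not reported here.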

Additional observations from a re-analysis of the deposited data

How the results depend on the processing

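The count of myelin genes called against sham moved with the tool and with the libraries fitted, and the cause was not tested. DESeq2 called 3 on day 1, 4 on day 21, 3 on day 60, 4 on day 90, 4 over all stroke times, 3 jointly and 1 between late and early times. Over all genes DESeq2 also called more, 13.3% to 22.9% over the 6 times, 27.9% over all stroke times and 25.3% jointly, against 4.55% to 12.6%, 19.8% and 7.21% by edgeR. Between late and early times DESeq2 called 8.28% of all genes, against 2.83% by edgeR. limma-voom called 0 on day 1, 1 on day 7 and 0 jointly, and its 1 call on day 90 was Mbp in place of Mal. Of all genes limma-voom called 3.95% on day 1, 13.5% on day 7, 9.91% on day 90 and 4.7% jointly. With only the groups compared in the fit, the count was 0 on days 1, 7 and 21, 2 on day 60 and 3 on day 90. These fits called 4.19%, 14.3% and 0% of all genes on days 1, 7 and 21. On days 60 and 90 they called 13.3% and 20.1% of all genes. Upper-quartile scaling gave 2 on day 21 and 0 jointly, and DESeq2 size factors or no filter on low counts gave 2 on day 90. Of all genes, upper-quartile scaling called 7.06% on day 21 and 6.88% jointly. On day 90 DESeq2 size factors called 8.09% of all genes and no filter 7.75%. With the replicate number as a block, the replicate block fit called 2 on day 90, Mbp and Mal, and 3 over all stroke times, Mbp, Mag and Mal, and it changed no other call. That fit called 14.5% of all genes on day 90 and 27.2% over all stroke times. Same-numbered libraries had deviations from their group means that correlated at 0.0710 to 0.677 (median 0.374, over 0.1 in 20 of 21 pairs of groups), and the labels do not say what the number shares. In the alternatives added after seeing the data, replicate 2 of days 60 and 90, or of days 1 and 21, was left out. Each such fit, and each fit with 1 library left out, leaves 1 library in a group. With 1 library left out the share of all genes called moved too, so counts of myelin genes called in these fits are not listed. Calls of Mbp and Mal were lost in some of them. With 1 library left out, the log2 fold change over all stroke times was -3.04 to -1.82 for Mbp and 1.81 to 2.20 for Mag. It was 0.30 to 0.45 for Cnp and 1.39 to 9.23 for Mobp. The log2 fold change turned its sign for genes that were not called. Mobp on day 7 was -0.48 with limma-voom and -2.60 to 8.10 with 1 library left out, the lowest without day 7 replicate 1. With 1 library left out, Mobp on day 60 was -0.058 (without sham replicate 1) to 7.83. Mobp between late and early times was 0.00198 without replicate 2 of days 1 and 21, and -1.81 to 0.15 with 1 library left out, the highest without day 7 replicate 1. On day 1, Mag was -0.38 to 1.88 and Cnp -0.39 to 0.56, each lowest without day 1 replicate 1. Mbp between late and early times was -0.24 to 0.42, below 0 without day 1 replicate 1, day 7 replicate 2 or day 21 replicate 1. Depth limits Mal in replicate 1, where no library held more than 14 counts of it.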
